A study of Mus musculus with 25 samples.

Results

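The genes of the proteasome and of its activators and assembly factors were examined in cultured neonatal mouse cardiac myocytes. Every gene whose symbol begins with Psma, Psmb, Psmc, Psmd, Psme or Psmg and that has a probe set naming it alone was taken, and where a gene had several such probe sets, the brightest on average represented it. This gave 49 of the 19938 genes measured. By role they were 8 genes of the alpha ring, 8 genes of the beta ring outside the immunoproteasome (the thymus-restricted Psmb11 among them), the 5 immunoproteasome genes Psmb8, Psmb9, Psmb10, Psme1 and Psme2, 6 ATPases of the 19S cap, 11 other cap subunits, 7 assembly chaperones, the 2 activators Psme3 and Psme4, and 2 genes that carry the prefix without coding for a subunit (Psmc3ip and Psme3ip1). Psme2b shares its probe set with Psme2 and was not measured alone, and the signal of Psme2 itself may include that close copy. Myocytes came from wild type (WT) mice or from transgenic (TG) mice in which the mlc2v promoter, active in ventricular myocytes, drives the transcription factor CHF1/Hey2 in the myocardium. Both were kept in medium free of serum or were given 20% fetal bovine serum for 24 hours, used as a hypertrophic stimulus. There were 5 arrays of WT without serum, 6 of TG without serum, 7 of WT with serum and 7 of TG with serum, each called an independent culture by the study, and the sources used here give neither the line nor the litters behind a culture. Whether the abundance of proteasome transcripts differed with CHF1/Hey2 or with serum was the question put to these arrays.

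The proteasome is the barrel-shaped protease that degrades proteins tagged with ubiquitin. Its 20S core stacks alpha rings, which gate the pore, on beta rings, whose subunits Psmb5, Psmb6 and Psmb7 carry the active sites, and its 19S cap recognizes, unfolds and threads the substrate. Interferon gamma and inflammatory signals replace these active subunits with Psmb8, Psmb9 and Psmb10 and induce the Psme1 and Psme2 activator, a form that favours peptides for class I antigen presentation. The transcription factor NRF1 (Nfe2l1) raises core and cap genes together when proteasome activity falls, and growing or stressed heart muscle depends on the proteasome to remove damaged contractile proteins.

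The stretches before the start site are shown for a pair of constitutive active-site genes and their immunoproteasome counterparts, and for 3 cap genes whose rank moved with serum. Each stretch is 150 bases, from RefSeq on GRCm38.p6, 5′ to 3′ on the gene's strand and ending at the base before the start. Capitals mark every match, on either strand, to any of 8 patterns searched: the antioxidant response patterns TGACNNNGC and TGAGNNNGC, which NRF1 also uses, the interferon response pattern made of a pair of GAAA with any 2 bases between them, the STAT pattern TTCNNNGAA, the AP-1 site TGACTCA, the ETS core CCGGAAG, the box written CCAAT and the box written TATAAA. The patterns were chosen with the sequences and earlier results known.
Psmb5: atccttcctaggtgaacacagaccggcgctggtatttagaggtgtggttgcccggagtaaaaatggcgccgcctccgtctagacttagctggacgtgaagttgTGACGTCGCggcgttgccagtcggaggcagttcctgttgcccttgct
Psmb8: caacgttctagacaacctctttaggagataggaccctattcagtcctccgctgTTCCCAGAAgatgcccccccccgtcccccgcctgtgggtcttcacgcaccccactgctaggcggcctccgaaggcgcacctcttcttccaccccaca
Psmb6: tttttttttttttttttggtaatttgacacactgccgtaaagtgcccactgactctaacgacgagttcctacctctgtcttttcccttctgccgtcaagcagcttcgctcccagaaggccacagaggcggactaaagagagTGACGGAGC
Psmb9: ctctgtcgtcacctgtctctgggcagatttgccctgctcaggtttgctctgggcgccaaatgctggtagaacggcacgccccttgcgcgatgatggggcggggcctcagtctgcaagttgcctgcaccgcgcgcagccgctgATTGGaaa
Psmd1: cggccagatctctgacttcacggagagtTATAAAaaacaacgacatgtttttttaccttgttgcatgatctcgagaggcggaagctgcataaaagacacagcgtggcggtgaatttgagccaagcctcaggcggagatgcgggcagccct
Psmd6: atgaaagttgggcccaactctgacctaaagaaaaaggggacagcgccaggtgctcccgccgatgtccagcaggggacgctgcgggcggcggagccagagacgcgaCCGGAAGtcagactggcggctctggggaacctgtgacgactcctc
Psmc2: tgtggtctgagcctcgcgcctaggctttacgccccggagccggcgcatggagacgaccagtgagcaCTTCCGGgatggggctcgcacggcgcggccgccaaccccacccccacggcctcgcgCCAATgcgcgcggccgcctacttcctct
These lie at chr14:54617996-54618145, minus strand for Psmb5, chr17:34198045-34198194, plus strand for Psmb8, chr11:70525207-70525356, plus strand for Psmb6 and chr17:34187331-34187480, minus strand for Psmb9. For Psmb6 the start used lies inside the RefSeq range of the gene, which begins at 70525324. The last bases of its stretch, with the marked match, therefore fall within that range. The stretches of the cap genes lie at chr1:86064469-86064618, plus strand for Psmd1, chr14:14120946-14121095, minus strand for Psmd6 and chr5:21785125-21785274, plus strand for Psmc2, the first of 2 start windows listed for that gene. Psmb8 and Psmb9 lie close together on opposite strands in the major histocompatibility region of chromosome 17, and Psme1 and Psme2 are neighbours on chromosome 14, at 55578494 to 55581527 and 55587440 to 55591101. Of the 49 genes, 41 had a window in the table, which spans 250 bases before to 50 after a start, and a gene was counted where any of its windows held the pattern. The ETS core CCGGAAG was found for 39% of these 41 genes and for 9.93% of all 27025 genes with a window. TGAGNNNGC was found for 31.7% against 19.8%, and the interferon response pattern for 12.2% against 3.99%. The genes with the interferon response pattern were Psmb3, Psmd4, Psmd9, Psme1 and Psmg4, of which only Psme1 is an immunoproteasome gene. The windows of Psmb8 and Psmb9 did not hold it. The other patterns stood closer to the share over all genes, at 14.6% against 14% for TGACNNNGC, 39% against 41.1% for CCAAT, 9.76% against 15.7% for TATAAA, 7.32% against 9.55% for TTCNNNGAA and 2.44% against 5.95% for TGACTCA. No array of this study measures binding at these windows.

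Values were log2 intensities after RMA, a background correction, quantile normalization and summary of the probes of a set, and a level of one probe set was not set against that of another. Hey2 was higher on every TG array, at 7.94 to 9.36 against 6.59 to 7.36 with serum and at 7.08 to 8.55 against 6.12 to 6.37 without. The difference was 1.81 (log2, SE 0.20) with serum, with a limma adjusted p of 0.0097, and 1.58 (SE 0.26) without, where the adjusted p was 0.85. Array medians ran from 4.99 to 5.09 without serum and from 5.21 to 5.36 with it, and the spread of the values within an array was near 2.1 without serum and near 2.6 with it, so levels were compared between genotypes within a serum condition and serum was compared by rank within an array. Of the 16 myocyte markers none was listed at 0, and their mean lay between 10.48 and 12.12 in all groups. On 6 arrays it lay more than 0.3 below the mean of its serum condition: TG replicate 6 and WT replicates 3 and 4 with serum, and TG replicates 4 and 5 and WT replicate 2 without. Results are given with and without these 6 arrays where they differ. In RNA from a whole culture, fewer cells of a type and less RNA per cell cannot be told apart.

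No proteasome gene differed between TG and WT myocytes past the adjusted test, with or without serum. With serum, the 49 differences ran from -0.22 to 0.25 (log2), 21 higher and 28 lower in TG, with a median of -0.0026 beside -0.016 over all 19938 genes. Without serum, they ran from -0.087 to 0.13, 24 higher and 25 lower, with a median of -0.0010 beside -0.0083 over all genes. Most of the 49 are bright, and the 4125 genes with a mean log2 of 8 or more had higher medians. These were 0.016 with serum, with 56.5% of those genes higher in TG, and 0.030 without, with 65.0% higher. By limma with Benjamini-Hochberg adjustment over all probe sets, 0 of 49 passed in either condition, where 0.00502% of all genes (Hey2 alone) passed with serum and 0% without. At an unadjusted p under 0.05, Psmg2 was higher with serum, where 5.15% of all genes were, and Psmb9 and Psmd2 were lower, where 6.32% were. Without serum Psme3 was higher, where 1.84% of all genes were, and none of the 49 was lower, where 2.56% were. The TG and WT arrays of all 49 genes overlapped in both conditions, while 0.256% of all genes did not overlap with serum and 0.306% without.

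**Figure D1:**
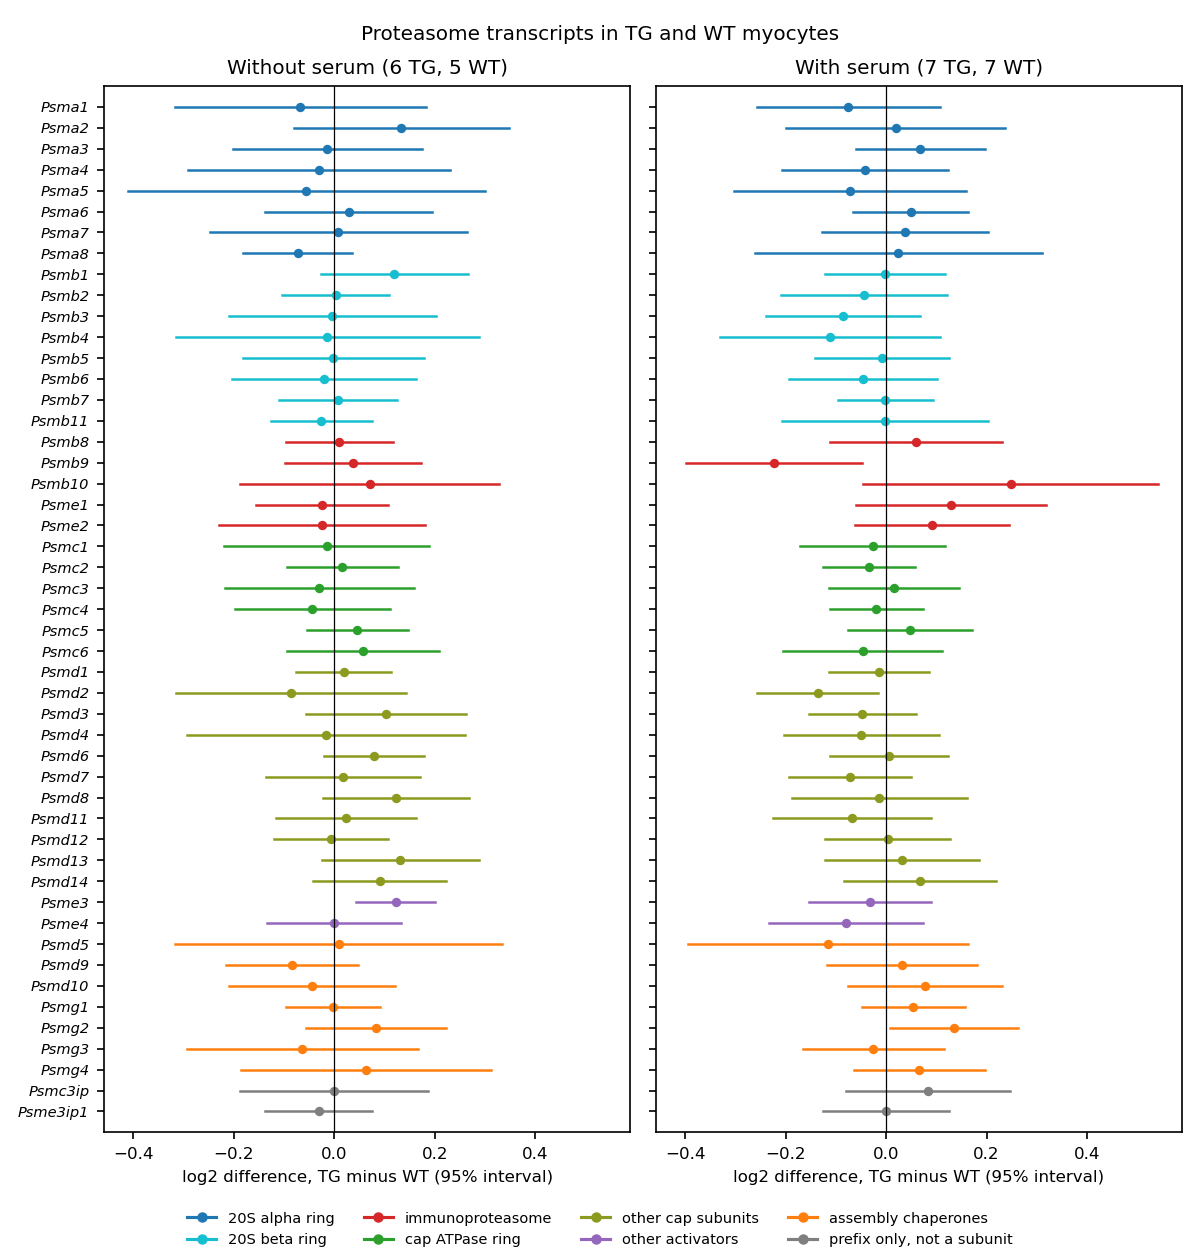
Each point is the log2 difference of 1 gene, TG minus WT, with its 95% interval from limma, without serum on the left (6 TG and 5 WT arrays) and with serum on the right (7 and 7), coloured by role. The points lie between -0.087 and 0.13 without serum and between -0.22 and 0.25 with it, and only Psmb9, Psmd2 and Psmg2 with serum and Psme3 without have intervals that leave out 0.

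The 95% intervals set bounds to the differences of the constitutive core and cap. Over the 31 genes of the alpha ring, beta ring and cap other than the restricted Psma8 and Psmb11, the median difference was -0.019 with serum, and 29 of the 31 differed by less than 0.1. Their 95% intervals lay between -0.33 and 0.24 on the log2 scale, that is between 0.79-fold and 1.18-fold of WT. Without serum the median of these 31 was 0.0068, and 26 differed by less than 0.1. The intervals then lay between -0.41 and 0.35, that is between 0.75-fold and 1.27-fold of WT. Over the 4125 genes with a mean log2 of 8 or more, 63.0% differed by less than 0.1 with serum and 69.5% without.

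In the alpha ring, which guards the entrance of the core, 5 of 8 genes were higher and 3 lower in TG with serum, from -0.075 for Psma1 to 0.068 for Psma3 (SE 0.060, adjusted p = 0.70). Without serum 3 were higher and 5 lower, from -0.073 for Psma8, the testis-restricted alpha subunit, to 0.13 for Psma2 (SE 0.097, adjusted p = 0.90). The estimate of Psma5 was the least precise, with an interval from -0.41 to 0.30 without serum. In the beta ring, which holds the catalytic sites, all 8 estimates with serum were below 0, between -0.11 for Psmb4 and -0.0012 for Psmb7. Psmb3, a structural beta subunit, was at -0.085 (SE 0.072, adjusted p = 0.69). The signs depended on the scaling, and after median centring of the arrays Psmb5, Psmb6 and Psmb7 lay at 0.042, 0.0033 and 0.048. Without serum 3 beta genes were higher and 5 lower, and Psmb1 at 0.12 (SE 0.067, adjusted p = 0.89) was the farthest from 0.

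The 6 cap ATPases Psmc1 to Psmc6, the ring that unfolds the substrate, stayed between -0.047 and 0.048 with serum and between -0.044 and 0.056 without. Among the 11 other cap subunits, Psmd2, a scaffold that binds ubiquitin-like domains, had the lowest estimate with serum. Its log2 values with serum were 11.12 at the lowest, 11.16 in the median and 11.37 at the highest in the 7 TG arrays, and 11.26, 11.34 and 11.47 in the 7 WT arrays. The groups overlapped, and 6 of 7 TG arrays were below the WT mean. The difference was -0.14 (SE 0.056, unadjusted p = 0.029 in limma, adjusted p = 0.42). Without serum it was -0.087 with an interval from -0.32 to 0.14. Psmd7, a partner of the deubiquitinase Psmd14, was at -0.071 with serum. Without serum Psmd13, Psmd8, Psmd3 and Psmd14 were at 0.13, 0.12, 0.10 and 0.090, and Psmd6 at 0.079 was above the WT mean in 6 of 6 TG arrays, with limma adjusted p-values from 0.88 to 0.90.

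Of the assembly chaperones, Psmg2, which pairs with Psmg1 to build the alpha ring, was at 8.01, 8.08 and 8.14 (lowest, median and highest of 7 TG arrays) and at 7.76, 7.93 and 8.11 in the 7 WT arrays with serum. No TG array fell under the average of WT, though 1 or more WT arrays reached into the TG range, and the difference was 0.14 (SE 0.060, unadjusted p = 0.039 in limma, adjusted p = 0.44). Its partner Psmg1 was at 0.054 (SE 0.048, adjusted p = 0.70), above the WT mean in 6 of 7 TG arrays. Psmd5, Psmd9 and Psmd10, which hold the cap ATPases during assembly, were at -0.12, 0.032 and 0.078 with serum and at 0.0087, -0.085 and -0.044 without. Among the activators, Psme3, the nuclear PA28 gamma, was at 8.88, 8.88, 8.76, 8.77 and 8.83 in the 5 WT cultures without serum and at 8.88, 8.96 and 8.98 (lowest, median and highest) in the 6 TG cultures. The ranges touched at 8.88, all 6 TG cultures were above the WT mean, and the difference was 0.12 (SE 0.036, unadjusted p = 0.0057 in limma, adjusted p = 0.85). With serum the Psme3 difference was -0.032, with 9.23 to 9.43 in TG and 9.24 to 9.57 in WT. Psme4, the large PA200 activator, was at -0.079 with serum and -0.0010 without. The genes outside the complex, Psmc3ip and Psme3ip1, were at 0.083 and -0.00039 with serum and at -0.0014 and -0.032 without.

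Whether the TG effect itself changed with serum was tested as an interaction, which passed the adjusted limma test for 0 of 49 genes, as for 0% of all genes. At an unadjusted p under 0.05 it passed for 2 of 49, Psmb9 at -0.26 (SE 0.11) and Psme3 at -0.15, where 3.15% of all genes passed. The estimates ran from -0.26 to 0.18 with a median of -0.011.

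With serum, the 5 immunoproteasome genes had the widest range of estimates between the genotypes of all roles, from -0.22 to 0.25, and none passed the adjusted test. Psmb9, the inducible counterpart of Psmb6, was lower in TG with serum at 6.54, 6.73 and 6.94 (lowest, median and highest of 7) against 6.77, 6.96 and 7.21 in 7 WT arrays. Every one of the 7 TG arrays was under the average of WT, the ranges overlapped, and the difference was -0.22 (SE 0.082, unadjusted p = 0.016 in limma, adjusted p = 0.38), from -0.26 to -0.17 over all alternatives tried. Without serum Psmb9 was at 6.86, 6.71, 6.98, 6.98 and 6.71 in the 5 WT cultures and at 6.80, 6.89 and 6.98 (lowest, median and highest) in the 6 TG cultures, a difference of 0.037 (SE 0.062), with TG inside the WT range.

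Psmb10, the counterpart of Psmb7, had the highest estimate with serum, at 7.23, 8.05 and 8.14 (lowest, median and highest) in 7 TG arrays and at 7.33, 7.58 and 7.93 in 7 WT arrays. TG held both the lowest array, replicate 6, and the 4 highest, and the difference was 0.25 (SE 0.14, limma adjusted p = 0.53). Without serum it was 7.26, 7.05, 7.33, 7.47 and 7.28 in the 5 WT cultures and 6.89, 7.40 and 7.60 (lowest, median and highest) in the 6 TG cultures, a difference of 0.070 (SE 0.12). Psmb8, the counterpart of Psmb5, lay near the middle of the array scale, at 5.06, 5.07, 4.98, 5.05 and 5.05 in WT and 4.98 to 5.24 in TG without serum. With serum it was 5.08 to 5.48 in WT and 5.14 to 5.59 in TG, with differences of 0.0097 (SE 0.049) without serum and 0.059 (SE 0.080) with it.

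Psme1, the alpha subunit of the PA28 activator, was at 9.49, 9.80 and 9.85 (lowest, median and highest) in TG and at 9.33, 9.57 and 9.88 in WT with serum. Of the 7 TG arrays 6 were above the WT mean, and the difference was 0.13 (SE 0.089, limma adjusted p = 0.62). Its partner Psme2 was at 8.55, 8.63 and 8.75 in TG and at 8.38, 8.56 and 8.85 in WT, a difference of 0.091 (SE 0.072, limma adjusted p = 0.67). Without serum both were at -0.025 and -0.024, with 8.92 to 9.06 in TG against 8.94, 8.89, 9.11, 9.21 and 8.95 in WT for Psme1. Psme2 was then at 8.33 to 8.72 in TG against 8.56, 8.28, 8.53, 8.53 and 8.83 in WT.

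**Figure D2:**
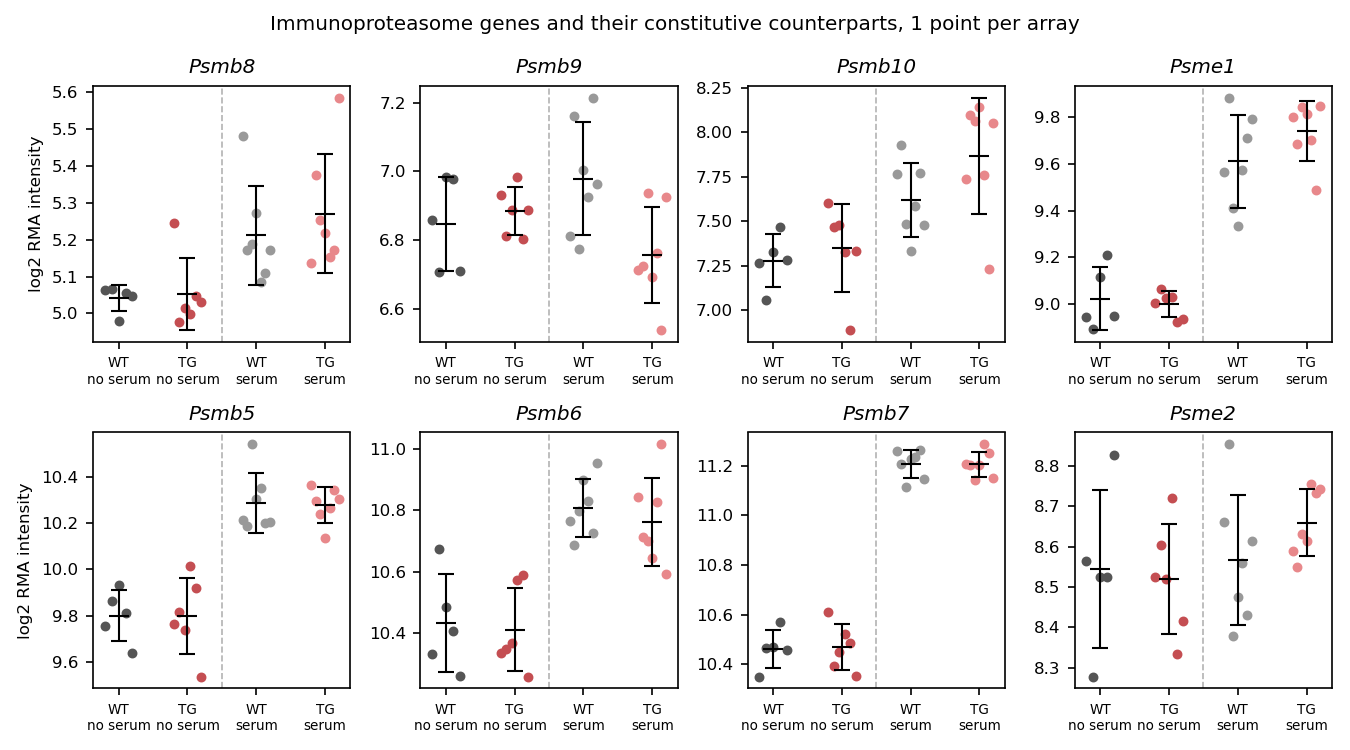
Log2 RMA intensity of the 5 immunoproteasome genes and of the 3 constitutive active-site genes, 1 point per array, with the mean and SD of each group as a bar, and a dashed line between the conditions because their scales may differ. The WT and TG points overlap in every panel and condition, and Psmb10 in TG with serum runs from 7.23 to 8.14.

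Since each inducible subunit takes the place of 1 constitutive subunit, the within-array log2 difference of the pair was compared between the genotypes. With serum, Psmb10 less Psmb7 was 0.25 higher in TG (SD 0.36 in TG and 0.19 in WT, 7 arrays each, two-sided exact permutation p = 0.13, adjusted p = 0.60 over 6 tests). Psmb9 less Psmb6 differed by -0.18 (SD 0.26 and 0.22, exact permutation p = 0.20, adjusted p = 0.60), and Psmb8 less Psmb5 differed by 0.067 (exact permutation p = 0.51). Without serum the 3 pairs differed by 0.012, 0.058 and 0.063, with adjusted permutation p-values of 0.74 to 0.92. None of the 6 tests passed, and Psmb10 and Psmb9 lay on opposite sides of 0 with serum.

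Serum left the rank of most proteasome genes within the spread of the cultures, and those that moved did so in both directions. A gene's percentile is its place among the 19938 genes of the same array, and it was called where all arrays of one serum condition lay above all of the other. In WT, 4 of 49 genes were higher with serum, where 18.5% of all genes were, and 9 were lower, where 19.3% were. In TG, 6 were higher, where 18.0% of all genes were, and 8 were lower, where 19.0% were. The shares of the 49, at 8.16% and 18.4% in WT and 12.2% and 16.3% in TG, were at or below those of all genes. Among genes at the 90th percentile or above without serum, 34 of which were proteasome genes, 11.8% of the 34 were higher and 20.6% lower in WT, beside 12.8% and 18.7% of all genes there. No p is given, since serum and a separate normalization of the arrays cannot be told apart.

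In both genotypes 4 of 49 genes were higher in rank and 6 lower, where 13.5% of all genes were higher in both and 14.8% lower. The 4 higher ones were 3 cap subunits and 1 beta subunit. Psmd14, the cap's deubiquitinase, went from a percentile of 90.8, 90.9, 91.6, 92.2 and 91.6 to 92.5 at the lowest and 95.2 at the highest in WT, and from 91.0 to 92.7 up to 94.1 to 95.2 in TG. Psmd6 went from 94.2 to 95.3 up to 95.7 to 96.8 in WT, and from 94.6 to 95.3 up to 95.6 to 96.6 in TG. Psmd1, the largest scaffold of the cap, went from 98.0 to 98.2 up to 98.7 to 98.9 in WT, and from 97.8 to 98.2 up to 98.6 to 98.9 in TG. Psmb2, a structural beta subunit, went from 93.4 to 93.9 up to 95.5 to 97.1 in WT, and from 92.8 to 94.3 up to 95.5 to 97.1 in TG. On the deposited scale these 4 genes were 0.93 to 1.13 (log2) higher with serum in WT and 0.85 to 1.09 in TG. With all arrays quantile normalized together, the differences of these 4 genes were smaller, at 0.40 to 0.62 in WT and 0.35 to 0.58 in TG.

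The 6 genes lower in rank in both genotypes were the cap ATPases Psmc2 and Psmc3, the alpha subunits Psma6 and Psma8, the beta subunit Psmb1 and the chaperone Psmg2. On the deposited scale only Psma8 was clearly lower with serum, by -0.97 (log2) in WT and -0.88 in TG. The others differed there by 0.049 to 0.14 in WT and by -0.029 to 0.18 in TG. After quantile normalization over all 25 arrays these others were lower with serum as well. The differences were then -0.47 to -0.31 in WT and -0.52 to -0.27 in TG. Psmc2 went from 95.5 to 96.3 down to 92.8 to 93.7 in WT and from 95.1 to 96.2 down to 92.4 to 93.4 in TG. The median of Psmb1 shifted by -3.59 percentage points in WT and by -3.66 in TG, and that of Psmg2 by -4.61 and -4.10. Psma8 had the widest shift, from 35.5 to 39.4 down to 15.0 to 23.8 in WT and from 34.1 to 39.2 down to 14.5 to 25.3 in TG, at log2 values under 5 in every array. In WT alone Psma1, Psma3 and Psmd11 were also lower, and in TG alone Psmd3 and Psmb9 were lower and Psmd9 and Psme3ip1 higher, with no test of these differences between the genotypes. Psmb9 in TG went from 64.5 to 67.5 down to 55.5 to 61.1, while in WT 63.2 to 67.6 and 58.4 to 66.0 overlapped. The other immunoproteasome genes and Psmb5, Psmb6 and Psmb7 overlapped in both genotypes.

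**Figure D3:**
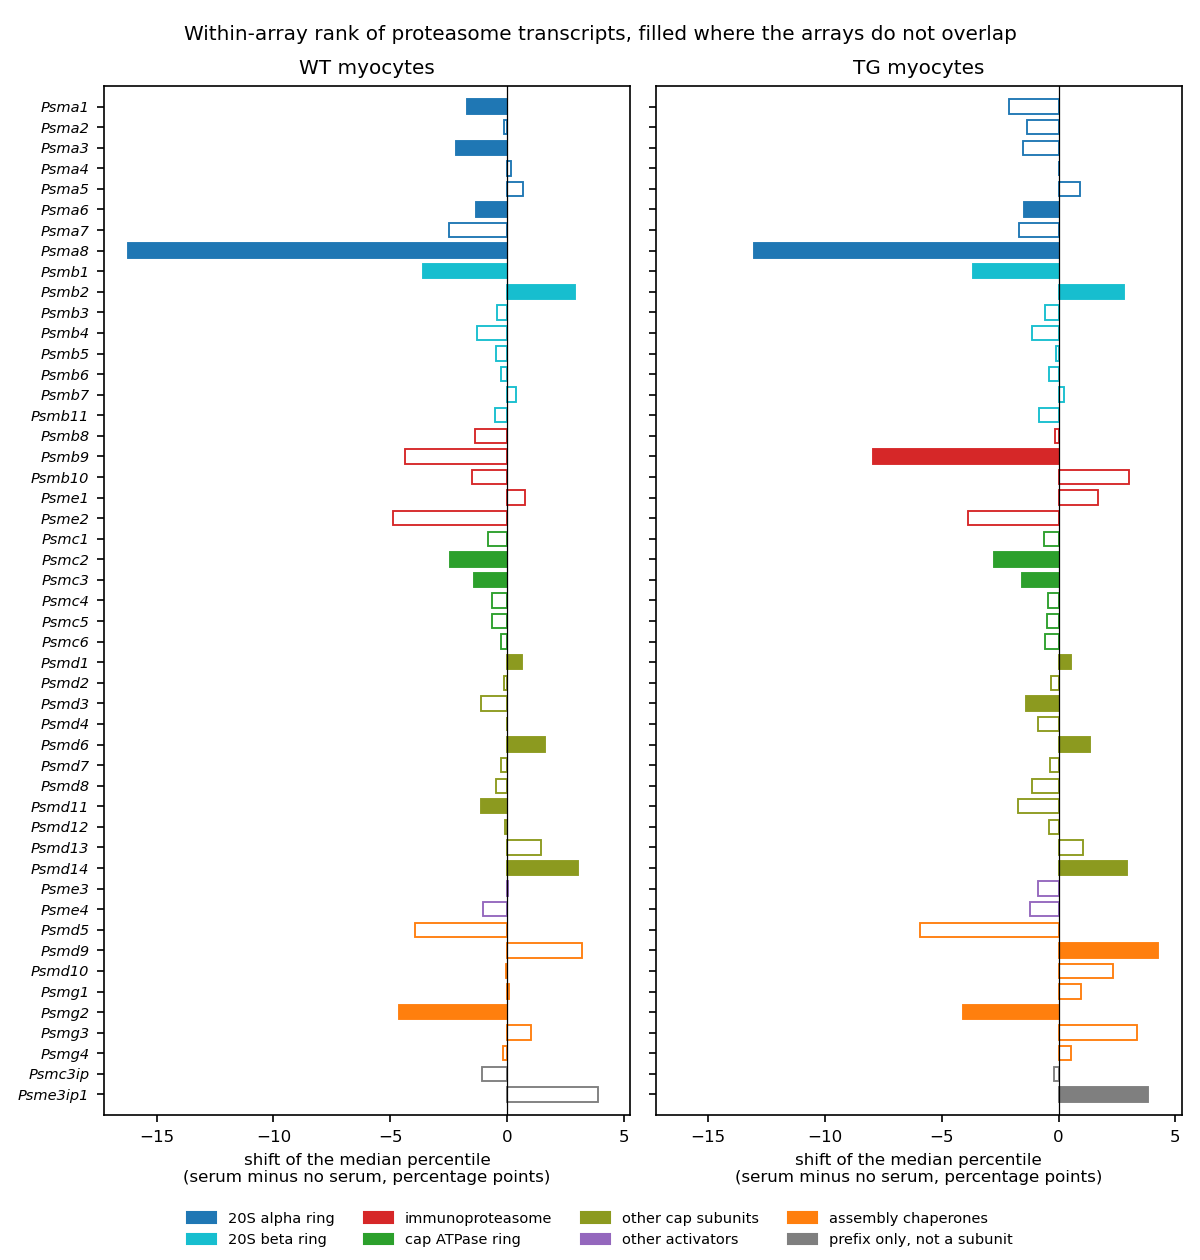
Shift of the median within-array percentile with serum, in percentage points, for WT (5 arrays without and 7 with serum) on the left and TG (6 and 7) on the right, coloured by role and filled where all arrays of one condition lie above all of the other. Psma8 reaches -16.2 in WT and -13.0 in TG, Psmb2 and Psmd14 lie between 2.78 and 3.04 in both, and most bars are open.

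Read on the deposited log2 scale instead of by rank, 31 of 49 genes were higher and 1 lower with serum in WT, and 22 higher and 1 lower in TG. Of all genes 37.7% were higher and 20.9% lower in WT, and 36.8% and 21.6% in TG. These shares are not matched for brightness, while 34 of the 49 lay at the 90th percentile or above without serum. Values within an array also spread more widely with serum, so the counts on this scale are not read as a result about the proteasome. Without the 6 arrays lower in myocyte markers, 6 genes were higher and 13 lower in rank in WT, beside 23.1% and 23.0% of all genes, and 10 higher and 14 lower in TG, beside 24.7% and 24.5%. Without TG replicate 6 with serum alone, 13 were lower in TG, where 20.5% of all genes were.

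Proteasome genes moved together from culture to culture within a group. After each group's mean was removed, the median correlation of a pair among the 31 core and cap genes was 0.50 over the 14 arrays with serum and 0.62 over the 11 without, beside 0.045 and 0.042 for pairs of all genes with a mean log2 of 8 or more. For the 5 immunoproteasome genes it was 0.26 and 0.25. The residual SD of a gene between cultures had a median of 0.12 over the 31 with serum, from 0.049 for Psmc2 to 0.21 for Psma5. Psmb10 had the widest spread of the 49 with serum, at 0.27, and Psme3 the narrowest without, at 0.047.

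With serum, core and cap genes were high in the cultures where myocyte markers were low, and the mean of the immunoproteasome genes ran the other way. These relations were chosen after the values were seen, the points of an array share 1 normalization, and they are given as a description with no p. With serum, the mean of the 31 core and cap genes had a Pearson r of -0.92 and a Spearman rho of -0.89 with the mean of the 16 myocyte markers over 14 arrays, with an r of -0.89 without the 2 arrays farthest from the median and -0.91 over the 11 arrays left without the 3 low ones. The mean of the 5 immunoproteasome genes had an r of 0.90 and a rho of 0.88, and 0.73 over those 11 arrays. Of the 31, 27 were negatively related, beside 54.4% of the 4125 genes with a mean log2 of 8 or more, and 23 had an r under -0.5, beside 35.1%. Psmb2, Psmd7, Psmd8, Psmb4 and Psma7 had r values of -0.94, -0.94, -0.94, -0.93 and -0.92, whereas Psmb10 had 0.90, Psme1 0.84, Psmb9 0.61, Psmb8 0.25 and Psme2 0.25. Over the 11 arrays left without the 3 low ones, Psmb10 had 0.86, Psme1 0.46, Psmb9 0.40, Psmb8 0.36 and Psme2 0.052, so that the relation of Psme1 and Psmb9 rested in part on the low arrays. Psmb7, whose residual SD with serum was 0.054, had -0.018.

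Without serum the arrays fell into 2 clusters by myocyte markers, 3 low arrays at -0.86 to -0.41 from their group mean and 8 at 0.12 to 0.44. No pooled value with the myocyte markers is therefore given. The 3 low arrays held the 3 highest core and cap means, at 0.093 to 0.16 above the group mean against -0.16 to 0.062 on the other 8. Their immunoproteasome means lay at -0.16 to 0.052 against -0.040 to 0.10 on the other 8, and TG replicate 4, at 0.052, was inside the range of those 8. Among those 8 arrays the r was -0.097 for core and cap, 0.22 for the immunoproteasome, 0.55 for Psmb10 and -0.69 for Psmd11. With few arrays and a narrow range of the markers, these values cannot decide whether the relation held within the cluster. Other cell types moved as well: with serum the core and cap mean had an r of 0.95 with the mean of 20 endothelial markers and 0.80 with that of 20 epicardial and mesothelial markers, 0.58 with fibroblast and -0.23 with macrophage markers. Without the 3 low arrays these were 0.94, 0.81, 0.31 and 0.039. The 8 arrays without serum outside the low cluster gave another order, with an r of -0.84 with macrophage markers, 0.59 with epicardial and mesothelial, -0.67 with endothelial and -0.69 with fibroblast markers. Over all 11 arrays without serum the macrophage markers had an r of -0.88 (rho -0.94, and -0.90 without the 2 farthest arrays). Epicardial and mesothelial markers then had 0.82, endothelial 0.205 and fibroblast -0.32, so the endothelial sign without serum turned with the 3 low arrays. The sign was thus the same in both conditions for epicardial and mesothelial markers and opposite for endothelial and fibroblast markers when the low arrays were left out, and the macrophage relation was near 0 with serum. The part of cell type makeup in these relations was not tested.

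**Figure D4:**
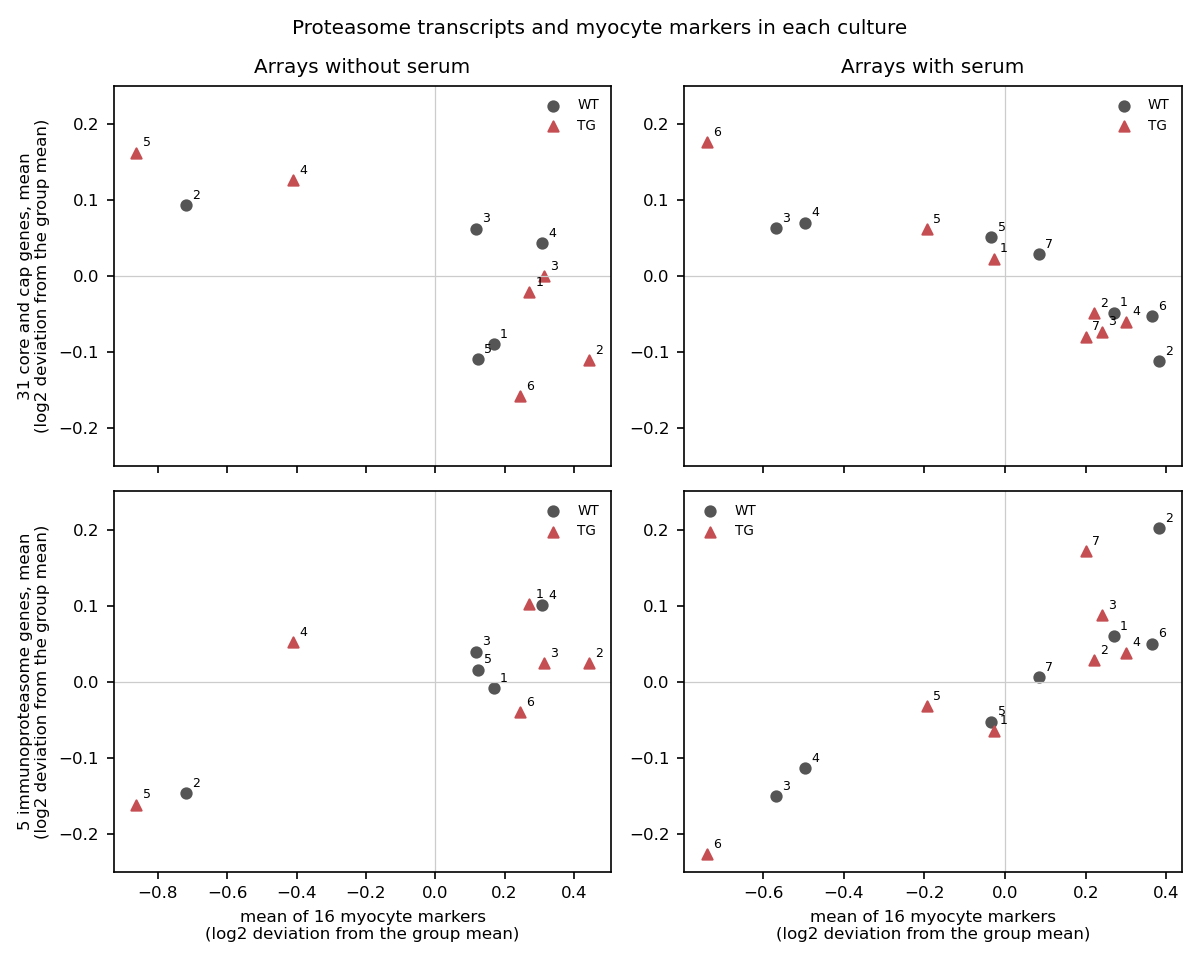
Mean of the 31 constitutive core and cap genes (top) and of the 5 immunoproteasome genes (bottom) against the mean of 16 myocyte markers, all as log2 deviations from the group mean, 1 point per array with its replicate number, without serum on the left and with serum on the right. With serum the core and cap points fall (r = -0.92) and the immunoproteasome points rise (r = 0.90) with the markers, and without serum 3 arrays stand apart on the left.

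The marker lists differed between the genotypes as well. The median over the myocyte markers with serum was larger in size than any of the 49 proteasome differences, which ran from -0.22 to 0.25. With serum, 15 of 16 myocyte markers were higher in TG with a median difference of 0.35, and 19 of 20 endothelial markers were lower with a median of -0.21. Their array means ran from 11.08 to 12.12 in TG and from 10.94 to 11.89 in WT for myocyte markers, and from 5.67 to 6.42 and from 5.87 to 6.54 for endothelial markers. Of the epicardial and mesothelial markers 14 of 20 were lower (means of 6.87 to 7.24 in TG and 6.99 to 7.40 in WT), of the macrophage and leukocyte markers 15 of 20 were higher (6.01 to 6.77 and 5.78 to 6.76), and of the fibroblast markers 11 of 19 were lower (8.59 to 9.09 and 8.24 to 9.21). Without serum 13 of 16 myocyte markers were higher in TG with a median of 0.083, and 16 of 20 endothelial, 15 of 20 epicardial and mesothelial and 15 of 19 fibroblast markers were lower. Macrophage and leukocyte markers stood on the opposite side without serum, with 18 of 20 lower in TG, a median of -0.15 and array means of 5.11 to 6.31 in TG and 5.28 to 6.63 in WT. No marker passed the adjusted test in either condition. At an unadjusted limma p under 0.05 with serum, 2 myocyte markers were higher, where 5.15% of all genes were. Then 4 endothelial and 5 epicardial and mesothelial markers were lower, where 6.32% of all genes were. Without serum 1 endothelial and 2 epicardial and mesothelial markers were lower, where 2.56% of all genes were. Leaving out the 3 low arrays, the Psmb9 difference with serum was -0.22 and that of Psmb10 was 0.27, and again 0 of 49 genes passed in either condition.

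The immunoproteasome genes showed no detectable relation to interferon or macrophage transcripts between cultures. Each of the 5 genes was set against the mean of 15 interferon response genes and of 20 macrophage and leukocyte markers in both conditions, 20 relations in all. With serum, Pearson r ran from -0.35 to 0.21 over 14 arrays, and without serum from -0.48 to 0.56 over 11 arrays. The smallest adjusted permutation p was 0.87 for r and 0.99 for rho. Psme2 without serum had the largest r with the macrophage mean, at 0.56 (rho 0.59, permutation p = 0.12 for r and 0.079 for rho), and 0.66 without the 2 arrays farthest from the median. Psmb10 without serum went from 0.36 to 0.74 when the same 2 arrays were left out. Of the 15 interferon genes 8 had a mean log2 under 5. With serum the mean of the 15 varied only from -0.093 to 0.051 around its average, which left little variation to relate to.

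No gene of the lists that act with the proteasome passed the adjusted limma test between the genotypes in either serum condition. Of 13 partners outside the prefixes, 8 were higher and 5 lower in TG with serum and 0 passed the adjusted limma test, with 1 higher at an unadjusted p under 0.05 where 5.15% of all genes were, Ecpas, a scaffold that binds the 26S proteasome, at 0.13 (SE 0.055, adjusted p = 0.42). Of 11 genes of the NRF1 pathway, 2 were higher and 9 lower with serum and 8 higher and 3 lower without. Nfe2l1 itself was at 0.088 (SE 0.051) with serum and 0.083 (SE 0.061) without, and Nfe2l2, the related NRF2, at -0.014 and 0.12. Mafg, a small Maf partner of these factors, was at -0.21 (SE 0.043, unadjusted p = 0.00019 in limma, adjusted p = 0.16) with serum. TG stood at 8.57 ± 0.060 and WT at 8.79 ± 0.036 (SD, n = 7 each).

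Of the 9 class I antigen presentation genes, the pathway the immunoproteasome feeds, 2 were higher and 7 lower with serum. Tap1, whose gene lies beside Psmb9, was at -0.31 (SE 0.11, unadjusted p = 0.011 in limma, adjusted p = 0.35), at 7.67 ± 0.18 in TG and 7.98 ± 0.24 in WT (SD, n = 7 each). Tap2, the partner subunit of Tap1 in the peptide transporter, was at -0.19 (SE 0.069, adjusted p = 0.38), and Erap1, which trims the peptides, at 0.24 (SE 0.081, adjusted p = 0.34). Without serum Tap1 was at -0.21 (SE 0.19). Of 15 interferon response genes 7 were higher and 8 lower with serum and 1 higher and 14 lower without, where the median was -0.095, and 8 of the 15 had a mean log2 under 5. With serum Irf1, which induces Psmb9, was at -0.029 (SE 0.078). Of 12 muscle ubiquitin ligases and related genes 9 were higher with serum, 1 at an unadjusted p under 0.05 where 5.15% of all genes were, and of 4 ubiquitin and E1 genes measured 2 were higher and 2 lower.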

How the data were processed

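RNA from 25 cultures of neonatal mouse cardiac myocytes was hybridized to Affymetrix Mouse Gene 1.0 ST arrays. The authors deposited log2 values made by RMA in Affymetrix Expression Console 1.1, and scanner intensities were not used here. The table held 35557 probe sets, of which 21789 name 1 gene, 1621 name several and 12147 none in the platform annotation. No per-sample column was left out (0). Groups came from the labels, and the study calls the cultures independent. If cultures of a group shared animals, p-values would measure a partly technical spread.

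The proteasome genes and all lists were chosen with earlier results of these data known. TG and WT were compared within each serum condition by limma 3.58.1 in R 4.3.3 (lmFit and eBayes, Benjamini-Hochberg over all probe sets), tested on simulated data first, and the difference of the 2 effects in 1 fit over all 25 arrays. Serum was compared by percentile rank within an array, with no p. Pairs of subunits were compared by exact permutation tests over arrays, and correlations by 100000 permutations within groups. Core and cap genes against myocyte markers were added after the data were seen. The genes named were the 5 immunoproteasome genes and Psmb5, Psmb6 and Psmb7, the 10 members with the smallest p where fewer passed, up to 4 members of a role with the largest rank shift, restricted or prefix-only members, Hey2, up to 4 genes of each other list and a few regulators. Where a range or a role needed another member, it was picked with its values known. In the main comparisons replicate numbers were not used as pairs. Same-numbered arrays of TG and WT had residual correlations of -0.36 to 0.062 with serum and -0.45 to 0.15 without. Those with and without serum had -0.24 to 0.16 in WT and -0.23 to 0.19 in TG. The paper's figures number some arrays without serum otherwise than the labels do. Same-numbered arrays may thus come from different preparations, and these values cannot decide whether cultures were paired. The number of arrays limits the precision. Promoter stretches came from RefSeq on GRCm38.p6, and all 49 symbols matched RefSeq. Alternatives were median centring, renewed quantile normalization, array weights, a mean-variance trend, filters on dim or shared probe sets, averaging all probe sets of a gene, a joint fit, the replicate block and leaving out each array or the 6 arrays with low myocyte markers, the last chosen after seeing the data.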

Additional observations from a re-analysis of the deposited data

Results flagged for a closer look

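Of 100 sets of values checked, 4 groups for each of the genes named most often, 5 held 1 array far from the others by Dixon's test, and chance flags about 1 in 20 groups. WT without serum replicate 3 was the highest for Psma8 at 4.98, where the others lay between 4.82 and 4.85, and the lowest for Psmb8 at 4.98, where the others lay between 5.05 and 5.07. TG without serum replicate 1 was the highest for Psmb8 at 5.24, against 4.98 to 5.05. WT with serum replicate 2 was the lowest for Psmd14 at 9.52, against 9.80 to 9.99, and WT without serum replicate 4 was the lowest for Psmd9 at 7.62, against 7.80 to 7.82.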

How the results depend on the processing

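The count of proteasome genes past the adjusted test was 0 in all 3 limma comparisons under all alternatives run, and no covariation or subunit pair passed under any. The median difference over the 49 genes ranged from -0.024 to 0.047 with serum and from -0.031 to 0.033 without, on both sides of 0. The difference ranged from -0.26 to -0.17 for Psmb9, from 0.20 to 0.35 for Psmb10, from -0.16 to -0.087 for Psmd2 and from 0.11 to 0.18 for Psmg2 with serum, and from 0.093 to 0.15 for Psme3 without. Signs near 0 turned. With each array centred on its median, Psmb5, Psmb6 and Psmb7 with serum were at 0.042, 0.0033 and 0.048, and without serum Psmb5, Psmb6, Psme1 and Psme2 were at 0.028, 0.0099, 0.0061 and 0.0063. Renewed quantile normalization put Psmb7 without serum at -0.019. Without the arrays low in myocyte markers, Psmb5 with serum was at 0.036, and Psmb7 and Psmb9 without serum at -0.010 and -0.0019. With the replicate block without serum, Psmb5 was at 0.050, Psmb6 at 0.0097, the pair of Psmb8 and Psmb5 at -0.036 and the median over the 49 genes at 0.033, and the replicate block changed no call. Leaving out 1 array at a time, with serum Psmb5 ran from -0.024 to 0.035 and Psmb7 from -0.017 to 0.0095. Without serum Psmb5 ran from -0.046 to 0.050, Psmb6 from -0.064 to 0.039, Psmb7 from -0.021 to 0.034, Psmb8 from -0.029 to 0.024, Psme1 from -0.057 to 0.023 and Psme2 from -0.091 to 0.046. The difference of the effects for Psmb8 ran from -0.0027 to 0.095, and without serum the pair of Psmb8 and Psmb5 ran from -0.037 to 0.066 and that of Psmb9 and Psmb6 from -0.037 to 0.11. The counts by serum moved most on the deposited log2 values, to 31 higher and 1 lower in WT and 22 higher and 1 lower in TG. Without the arrays low in myocyte markers they were 10 higher and 14 lower in TG, and leaving out 1 array at a time gave 8 to 13 lower in TG, 13 without TG replicate 6. The cause of these shifts was not tested.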
